A study of Mus musculus with 11 samples.

Results

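Red blood cell transcripts were followed through bulk RNA-seq of sorted mouse marrow stroma. The set was chosen by symbol, as 9 genes of haemoglobin production, erythroid control and the red cell membrane: Hba-a1, Hba-a2, Hbb-bs, Hbb-bt, Alas2, Slc4a1, Klf1, Car1 and Ahsp. Of these, 8 have a row among the 24718 genes of the count table, all 8 had counts in every library, and all 8 passed the filter on low counts that left 17838 genes. Ahsp was not analysed here.

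All mice were females of the genotype Lepr-Cre;LSL-tdTomato+/-, in which Cre made under the leptin receptor gene switches on the red reporter tdTomato in leptin receptor-expressing cells and their descendants, and the sort by that reporter defines the cells as mesenchymal stem and progenitor cells. The DOX4X group (n = 4) received 4 intravenous doses of doxorubicin at 5 mg/kg, 1 week apart, at 8 to 10 weeks of age. The DOX1X group (n = 3) received 1 intravenous dose of 10 mg/kg as young adults, and the PBS group (n = 4) received 4 intravenous injections of phosphate-buffered saline. Marrow was taken 8 weeks after treatment. Doxorubicin is an anthracycline chemotherapy drug that damages DNA, and the schedules differ in dose, number of injections and total amount. Nothing in the labels says whether a library came from 1 animal or a pool.

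Erythroid cells arise in the marrow from haematopoietic progenitors and do not belong to the stromal lineage. The transcription factor Klf1 and the carbonic anhydrase Car1 are already made in early erythroid progenitors. Later precursors fill with haemoglobin, a tetramer of alpha and beta globin chains that each hold a haem group, and make the anion exchanger Slc4a1 (band 3) for their membrane. In adult mice the alpha chains come from Hba-a1 and Hba-a2, the beta chains of this haplotype come from Hbb-bs and Hbb-bt, and Alas2 is the erythroid enzyme of the first step of haem synthesis.

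The sequences before the transcript starts are shown because the transcripts varied together and because the near-identity of the globin copies limits what can be read from each. RefSeq windows of 250 bases before the start (build GRCm38.p6, an older build than the GRCm39 of the counts) were found for 6 of the 8 genes and not for Slc4a1 or Car1. Each is written 5′ to 3′ on the strand of its gene, and the windows lie at chr11:32283422-32283671 (Hba-a1, plus strand), chr7:103827929-103828178 (Hbb-bs, minus strand), chr7:103813924-103814173 (Hbb-bt, minus strand), chrX:150547167-150547416 (Alas2, plus strand) and chr8:84901732-84901981 (Klf1, plus strand). Capitals mark matches, on either strand, to GATAA (the core bound by GATA factors), CCAAT (the CCAAT box), TATAA (the TATA box), CACCC (the core bound by Klf1 and related factors) and its longer form CCACACCC.
Hba-a1: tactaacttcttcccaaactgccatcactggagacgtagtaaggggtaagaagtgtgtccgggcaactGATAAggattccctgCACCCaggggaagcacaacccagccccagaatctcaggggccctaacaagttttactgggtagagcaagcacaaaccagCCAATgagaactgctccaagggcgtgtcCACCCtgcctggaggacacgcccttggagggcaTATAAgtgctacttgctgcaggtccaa
Hbb-bs: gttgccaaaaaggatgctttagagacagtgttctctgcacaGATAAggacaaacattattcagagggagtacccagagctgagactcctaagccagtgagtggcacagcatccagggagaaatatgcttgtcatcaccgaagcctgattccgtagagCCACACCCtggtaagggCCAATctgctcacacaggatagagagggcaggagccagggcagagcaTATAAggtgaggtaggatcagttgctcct
Hbb-bt: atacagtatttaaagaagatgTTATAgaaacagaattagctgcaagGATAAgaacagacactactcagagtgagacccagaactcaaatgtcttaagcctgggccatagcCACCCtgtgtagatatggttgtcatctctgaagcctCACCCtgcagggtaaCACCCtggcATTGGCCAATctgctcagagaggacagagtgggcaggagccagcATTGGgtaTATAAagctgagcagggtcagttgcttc
Alas2: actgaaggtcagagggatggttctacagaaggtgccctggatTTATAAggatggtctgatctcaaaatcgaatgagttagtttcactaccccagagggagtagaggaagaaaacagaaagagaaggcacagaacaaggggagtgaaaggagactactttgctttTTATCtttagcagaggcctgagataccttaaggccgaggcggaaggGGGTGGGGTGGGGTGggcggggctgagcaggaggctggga
Klf1: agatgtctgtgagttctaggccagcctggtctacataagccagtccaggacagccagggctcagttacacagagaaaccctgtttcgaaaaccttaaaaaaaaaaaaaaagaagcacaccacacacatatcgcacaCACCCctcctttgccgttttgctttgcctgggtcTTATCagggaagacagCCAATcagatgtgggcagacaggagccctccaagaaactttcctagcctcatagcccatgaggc

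GATAA was found in all 6 windows, against 22.6% of 32851 RefSeq windows of that length. CACCC was also in all 6, but it was in 52% of all windows. CCAAT was in 5 of the 6 (33.8% of all windows) and had no match in the Alas2 window. A TATAA that ended 23 to 26 bases before the start stood in all 4 globin windows (22.8% of all windows held TATAA anywhere). CCACACCC, the long form that contains CACCC, was matched in the Hbb-bs window alone, from 93 to 86 bases before the start, and in 3.2% of all windows. A match is a description of these letters and not a binding site. The Hba-a1 and Hba-a2 windows (the second at chr11:32296242-32296491) were equal at 247 of 247 aligned bases, while Hbb-bs and Hbb-bt were equal at 185 of 239 (77.4%).

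**Figure D1:**
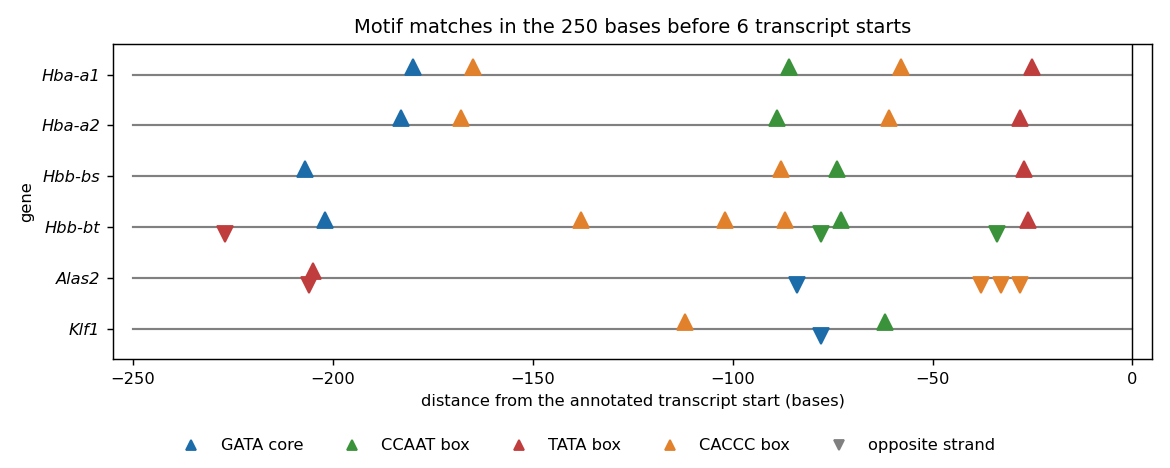
Positions of motif matches (triangles, pointing down for the opposite strand) along the 250 bases before 6 transcript starts, with the distance from the start in bases on the x axis and 1 row per gene. The 4 globin genes have a TATA box close to the start, and a GATA core is present in each of the 6 rows.

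The copies of each pair are also alike in their transcripts. Of the 50-base stretches of the Hba-a2 transcript, 86.9% also occur in Hba-a1, and 67.5% of those of Hba-a1 occur in Hba-a2 (GENCODE M21 transcripts). For Hbb-bs and Hbb-bt the shares were 65.8% and 58.3%. Since the treatment of reads that match several places is not given in the sources used here, the split of counts within a pair is uncertain. Values for the summed pairs are therefore given beside those of the copies in the comparisons of groups.

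The deposited values are raw counts, with 29540422 (PBS 4) to 42784036 (PBS 1) counts per library. Stromal markers were at high levels in CPM, the count as a share of the library, scaled by TMM factors. Cxcl12, the niche chemokine, averaged 50085 ± 5131 CPM in DOX4X, 53383 ± 5928 CPM in DOX1X and 53730 ± 3101 CPM in PBS libraries (SD, n = 4, 3 and 4). In the same order of groups, Lepr averaged 5050 ± 464, 5408 ± 1363 and 6479 ± 1092 CPM. Its log2 fold change in DOX4X against PBS was -0.36 (SE 0.16, edgeR adjusted p = 0.360). Kitl averaged 1106, 1210 and 1068 CPM, and Adipoq 2710, 2499 and 2408 CPM. Column names place DOX4X 1 to 4 and DOX1X 3 on flow cell 2, and DOX1X 1, DOX1X 2 and PBS 1 to 4 on flow cell 1, so that DOX4X and PBS cannot be told apart from the flow cells by a direct comparison. The title of PBS 4 begins with the doxorubicin abbreviation, but its treatment label is PBS. The counts and medians of the 8 transcripts in the comparisons with PBS are therefore also given without it.

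Erythroid transcripts were present at low levels in every library. The 8 genes together made up 0.0644% of the counts in DOX4X 1 (95% exact binomial interval 0.0636 to 0.0653%), the highest share, and 0.0128% in PBS 4 (0.0124 to 0.0133%), the lowest. These intervals cover counting error only. The share averaged 0.0479 ± 0.0167% in DOX4X, 0.0401 ± 0.0153% in DOX1X and 0.0213 ± 0.0067% in PBS libraries (SD, n = 4, 3 and 4). In summed CPM the range was 272 to 611 in DOX4X, 221 to 532 in DOX1X and 126 to 290 in PBS libraries, so that DOX4X 3 and DOX1X 3 lay inside the PBS range and the other 5 doxorubicin libraries lay above it. In bulk samples, fewer cells of a type and less RNA per cell cannot be told apart, and the same holds for more of either.

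Per kilobase of transcript, which allows genes to be set side by side, Car1 had the highest level of any single gene. It averaged 159 CPM per kb over the 11 libraries, ahead of Hba-a1 (69.6) and Hbb-bs (65.8), which differed by far less than their SDs of 41.5 and 36.1. Hbb-bt (23.8), Hba-a2 (17.5) and Klf1 (15.2) followed at levels that were within 1 SD of each other, then Slc4a1 (5.77) and Alas2 (2.09), which differed by less than the Slc4a1 SD of 4.93. No single globin transcript was the most abundant of the set per length in this sort. The split within each globin pair is uncertain, and levels per kilobase were not summed over the globins. In raw counts, which are not scaled by length, the 4 together held between 16.1% (PBS 2) and 46.9% (PBS 4) of the counts of the 8 genes. Car1 held between 37.1% (PBS 3) and 72.6% (PBS 2).

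Of the globin genes, the alpha chain gene Hba-a1 had 93.2, 72.5, 33.1 and 48.4 CPM in DOX4X 1 to 4, 97.3, 65.6 and 22.3 CPM in DOX1X 1 to 3, and 26.4, 21.2, 35.7 and 19.5 CPM in PBS 1 to 4. DOX4X 3 and DOX1X 3 overlapped the PBS libraries, and the other doxorubicin libraries stood above all of them. Hba-a2 had 16.9, 11.6, 7.91 and 12.4 CPM in DOX4X, 17.4, 11.8 and 5.20 CPM in DOX1X, and 5.45, 4.71, 7.54 and 5.47 CPM in PBS libraries. Every DOX4X library was above every PBS library for Hba-a2, narrowly so between DOX4X 3 and PBS 3, while DOX1X 3 lay within the PBS range. The summed alpha pair overlapped, at 41.0 CPM in DOX4X 3 and 43.2 CPM in PBS 3.

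The beta globin genes had a similar order of libraries. Hbb-bs had 72.9, 49.1, 30.3 and 41.8 CPM in DOX4X, 88.6, 48.6 and 25.7 CPM in DOX1X, and 18.7, 15.2, 36.5 and 27.0 CPM in PBS libraries. PBS 3 exceeded DOX4X 3 and DOX1X 3. Hbb-bt had 36.0, 25.2, 12.5 and 16.3 CPM in DOX4X, 30.9, 21.3 and 10.0 CPM in DOX1X, and 7.28, 5.67, 11.8 and 7.30 CPM in PBS libraries. DOX4X and PBS did not overlap for Hbb-bt, again with DOX4X 3 and PBS 3 as nearest neighbours. The summed beta pair overlapped, at 42.8 CPM in DOX4X 3 and 48.3 CPM in PBS 3.

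Alpha and beta globin counts were close to equal. The ratio of the beta pair to the alpha pair averaged 0.968 ± 0.067 in DOX4X, 1.08 ± 0.20 in DOX1X and 1.03 ± 0.27 in PBS libraries (SD), and ran from 0.803 in PBS 2 to 1.37 in PBS 4. The Hbb-bs to Hbb-bt count ratio was 1.95 to 2.56 in DOX4X, 2.28 to 2.87 in DOX1X and 2.57 to 3.70 in PBS libraries. The DOX4X and PBS ranges of that ratio met without overlapping, but it rests on the uncertain split within the pair. Of the embryonic and minor globins, Hbq1b alone was analysed, and it was at 0.060 to 0.44 CPM over the 11 libraries, with no more than 16 counts in a library.

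Alas2 was the least abundant member. It had 8.45, 6.67, 2.71 and 4.88 CPM in DOX4X, 8.81, 5.00 and 2.05 CPM in DOX1X, and 1.60, 1.33, 3.88 and 1.37 CPM in PBS libraries, from 40 to 360 counts per library. PBS 3 stood apart from the other PBS libraries and above DOX4X 3 and DOX1X 3.

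Slc4a1 varied most, 46.4-fold between the highest and the lowest library. It had 72.8, 40.4, 16.5 and 22.5 CPM in DOX4X, 50.7, 39.6 and 8.52 CPM in DOX1X, and 8.70, 1.57, 23.6 and 3.44 CPM in PBS libraries. The value of PBS 2 rests on 47 counts, and PBS 3 was above DOX4X 3, DOX4X 4 and DOX1X 3.

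Klf1 and Car1, made from the early progenitors on, ordered the PBS libraries differently. Klf1 had 43.3, 39.1, 12.2 and 25.3 CPM in DOX4X, 25.0, 39.4 and 10.9 CPM in DOX1X, and 17.0, 29.9, 8.87 and 5.34 CPM in PBS libraries. Car1 had 267, 324, 157 and 221 CPM in DOX4X, 213, 235 and 136 CPM in DOX1X, and 187, 211, 75.4 and 57.0 CPM in PBS libraries. PBS 2, which had the lowest or second lowest level of each globin, Alas2 and Slc4a1 among the PBS libraries, had the highest of Klf1 and Car1, and PBS 3, highest for each globin, Alas2 and Slc4a1, was the second lowest for both. The groups overlapped for both genes.

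**Figure D2:**
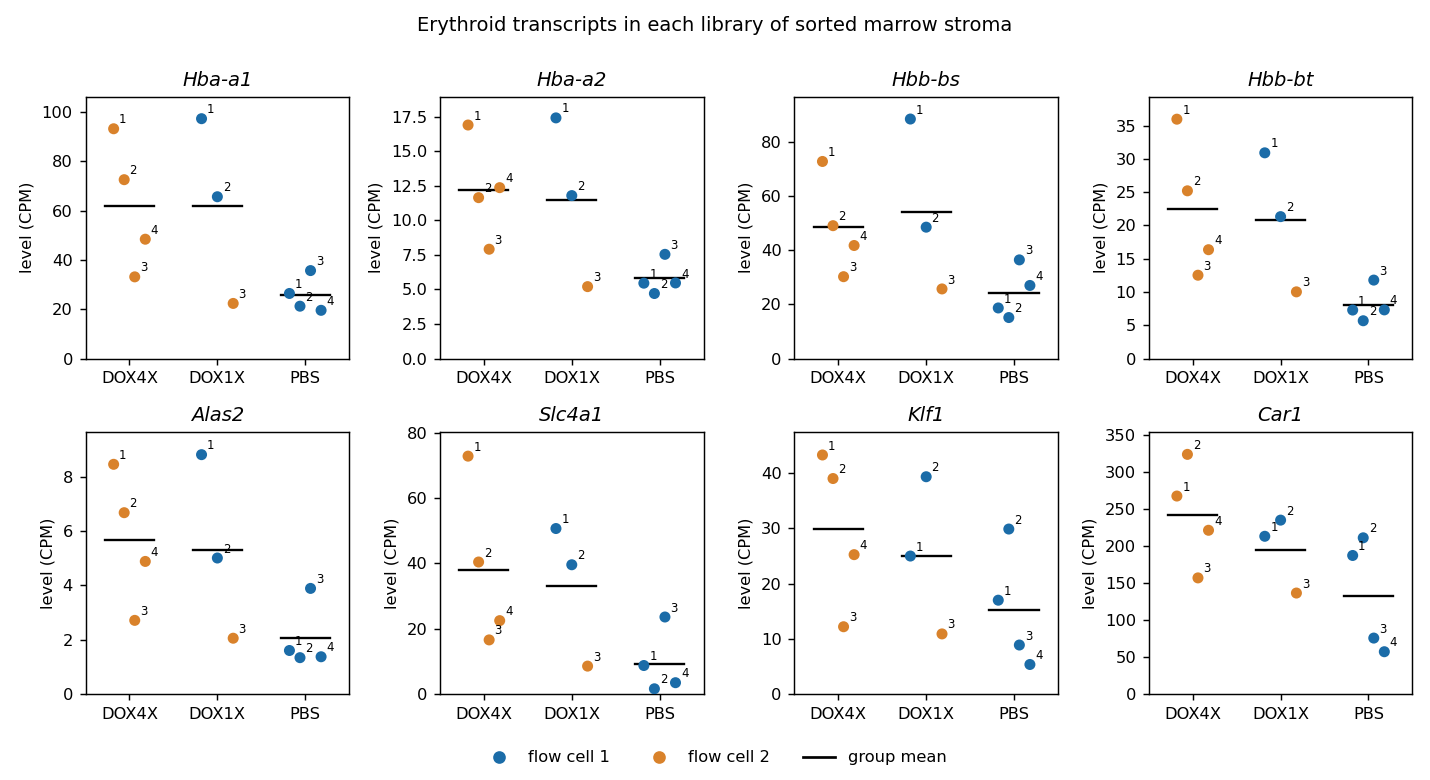
Level of each of the 8 transcripts in CPM (y axis, from 0, linear) in each library, with the replicate number beside each point, colour for the flow cell and a line for the group mean. DOX4X 1 and DOX1X 1 are the highest libraries for the globins, Alas2 and Slc4a1, and DOX4X 3 and DOX1X 3 are the lowest of their groups in every panel.

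After 4 doses of doxorubicin, the sort was compared with that of PBS mice. All 8 genes were higher in DOX4X on average, with a median log2 fold change of 1.17, against 0.01 over all 17838 genes tested, but none passed an adjusted p under 0.05 (edgeR's quasi-likelihood test over all genes, Benjamini-Hochberg; adjusted p from 0.148 to 0.461). In that comparison 0% of genes were called higher and 0.146% lower. The globins had log2 fold changes of 1.27 for Hba-a1 (SE 0.41), 1.08 for Hba-a2 (SE 0.33), 1.00 for Hbb-bs (SE 0.39) and 1.49 for Hbb-bt (SE 0.39). Summed as pairs, the alpha globins were at 1.23 (SE 0.40, edgeR adjusted p = 0.216) and the beta globins at 1.14 (SE 0.38, edgeR adjusted p = 0.236).

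Among the other members, Slc4a1 had the largest log2 fold change at 2.03 with the widest error (SE 0.78, 95% interval 0.33 to 3.73). Alas2 was at 1.47 (SE 0.50), Klf1 at 0.97 (SE 0.55) and Car1 at 0.87 (SE 0.39). At an unadjusted p under 0.05, 7 of 8 were higher in DOX4X, all but Klf1, against 6% of all genes. That count was 5 without PBS 4 (6.41% of all genes, median log2 fold change 1.10), 4 without DOX4X 1 (4.84% of all genes) and between 6 and 8 without any other library. Hba-a2 and Hbb-bt, 2 of 8, had groups that did not overlap, against 3.17% of all genes, though both summed pairs overlapped. The number was 2 in 9 of the 11 fits that left out a library and 6 in the fits without PBS 3 (4.65% of all genes) or without DOX4X 3 (5.93%). With DESeq2 in place of edgeR, 3 of 8 passed the adjusted threshold, against 1.13% of genes called higher: Hba-a2 (adjusted p = 0.0347), Hbb-bt (adjusted p = 0.0049) and Alas2 (adjusted p = 0.0495).

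For 1 dose against PBS the fold changes were of like size with wider errors. All 8 were higher in DOX1X on average and none passed (edgeR adjusted p from 0.596 to 0.788). The median log2 fold change was 1.21, against 0.0057 over all genes, and the share of genes called higher was 0.00561%. The globins ranged from 0.99 (Hba-a2, SE 0.35) to 1.37 (Hbb-bt, SE 0.41), Alas2 was at 1.37 (SE 0.53), Slc4a1 at 1.82 (SE 0.81), Klf1 at 0.71 (SE 0.58) and Car1 at 0.55 (SE 0.41). The summed alpha pair was at 1.22 (SE 0.42, edgeR adjusted p = 0.601) and the beta pair at 1.21 (SE 0.41, edgeR adjusted p = 0.597). At an unadjusted p under 0.05, 6 of 8 were higher, against 3.42% of all genes, and 4 were without PBS 4 (5.28% of all genes, median log2 fold change 1.18) or without PBS 1 (3.01%). Without DOX1X 1 the count was 1 (2.55% of all genes) and the median was 0.74. None of the 8 had groups that did not overlap, against 3.18% of all genes; the number was 2 without PBS 3 (5.25% of all genes) and 7 without DOX1X 3 (9.12%). Both comparisons share the PBS libraries.

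The schedules were then set against each other. DOX4X and DOX1X differed by a median log2 fold change of 0.11 over the 8 genes, 7 were higher and Hbb-bs was lower, and none passed at an unadjusted p under 0.05, against 2.23% of all genes higher at that threshold. None had groups that did not overlap, against 3.19% of all genes higher in that way. The summed alpha pair was at 0.016 (SE 0.42) and the beta pair at -0.080 (SE 0.40). The 95% intervals were wide, from -0.95 to 0.96 for Hba-a1, from -1.06 to 0.73 for Hbb-bs, from -1.02 to 1.53 for Klf1 and from -1.54 to 1.96 for Slc4a1. They leave room for differences of nearly 2-fold in either direction for Hba-a1 and of more for Slc4a1, so the schedules were not shown to act alike.

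**Figure D3:**
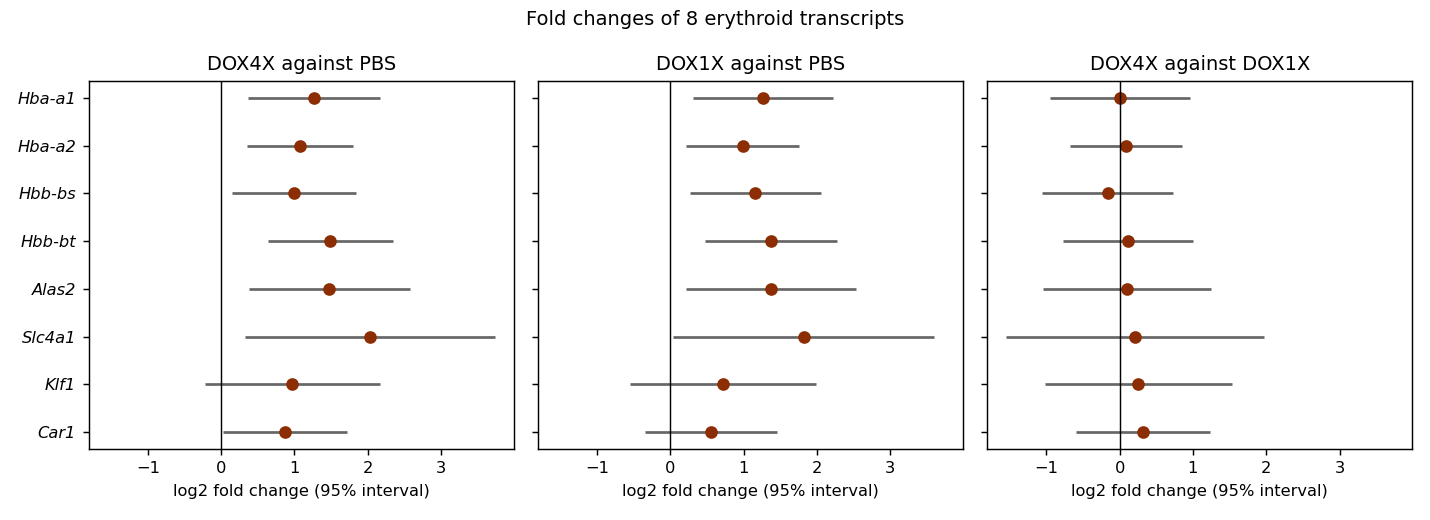
Log2 fold changes of the 8 transcripts (points) with 95% intervals (lines) from the edgeR fit in the 3 comparisons, with the vertical line at no difference. The points lie above 0 in both comparisons with PBS and around 0 between the schedules, and the Slc4a1 intervals are the widest.

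The values differed when the flow cell was taken into account. Within flow cell 1, where DOX1X 1 and 2 stand beside the 4 PBS libraries, 7 of 8 members, all but Klf1, had both DOX1X libraries above every PBS library, against 9.22% of all genes, and the median log2 fold change was 1.58 (lowest edgeR adjusted p = 0.183). Within flow cell 2, each of the 8 was higher in every DOX4X library than in DOX1X 3, against 22.4% of all genes, and the median log2 fold change was 1.35 (edgeR adjusted p = 0.710 for each). That value rests on a single DOX1X library. With the flow cell as a term in the fit of all libraries, the DOX4X against PBS median was 2.72, which rests on DOX1X 3 as the bridge, and none of the 8 passed (lowest edgeR adjusted p = 0.157). No DOX4X against PBS value can be had within a flow cell.

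To describe how they varied over the 11 libraries, the transcripts were divided into a pair of chosen sets. No clustering or test of separation was run. The separation leaned on PBS 2 and was not seen in the order of the libraries within flow cell 2. The 4 globins, Alas2 and Slc4a1 varied together: the 15 pairs among them had Pearson r from 0.90 to 0.98 and Spearman rho from 0.88 to 0.98 on log2 CPM (permutation test, 100000 resamples, 15 of 15 with adjusted p under 0.05 over the 28 pairs computed). Klf1 and Car1 also varied together (r = 0.94, rho = 0.95, permutation adjusted p = 2.5e-05). Between the sets r was lower, from 0.35 to 0.71 with rho from 0.48 to 0.75 over 12 pairs, of which Hba-a1 with Klf1 passed (r = 0.71, permutation adjusted p = 0.029). The permutations shuffled all 11 libraries without regard to group or flow cell. Differences between groups or flow cells that genes share therefore enter these r and p values.

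Without PBS 2, which is low for the first set and high for Klf1 and Car1, the 12 values between the sets were 0.50 to 0.86 (median 0.73, against 0.55 with it), and without PBS 2 and PBS 3 they were 0.55 to 0.92 (median 0.80). With any other library left out, their median was 0.47 to 0.61. The values within each set stayed at 0.86 or above in each of these cases. Without the 2 libraries farthest from the median of the first gene, r was 0.86 to 0.97 among the first set, 0.93 for Klf1 with Car1 and 0.42 to 0.71 between the sets. In the 6 libraries of flow cell 1 the same values were 0.88 to 1.00, 0.97 and 0.13 to 0.53. No r was computed for the 5 libraries of flow cell 2. Within flow cell 2 the sets were not apart in the order of the libraries. Klf1 put the 5 libraries in the same order as Hba-a1, Hbb-bs, Hbb-bt, Alas2 and Slc4a1 did, from DOX4X 1 down to DOX1X 3. Hba-a2 differed in having DOX4X 4 above DOX4X 2, and Car1 differed only in its first places. All values of a library share its depth and its sort, and the part of shared reads in the r of the near-identical globin copies was not tested. Alas2 and Slc4a1 had r of 0.90 or above with each globin, and these values do not measure the part of shared reads. The Slc4a1 to Klf1 count ratio, 1 gene of each set, was 0.889 to 1.68 in DOX4X, 0.783 to 2.03 in DOX1X and 0.052 (PBS 2) to 2.66 (PBS 3) in PBS libraries, the widest spread.

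**Figure D4:**
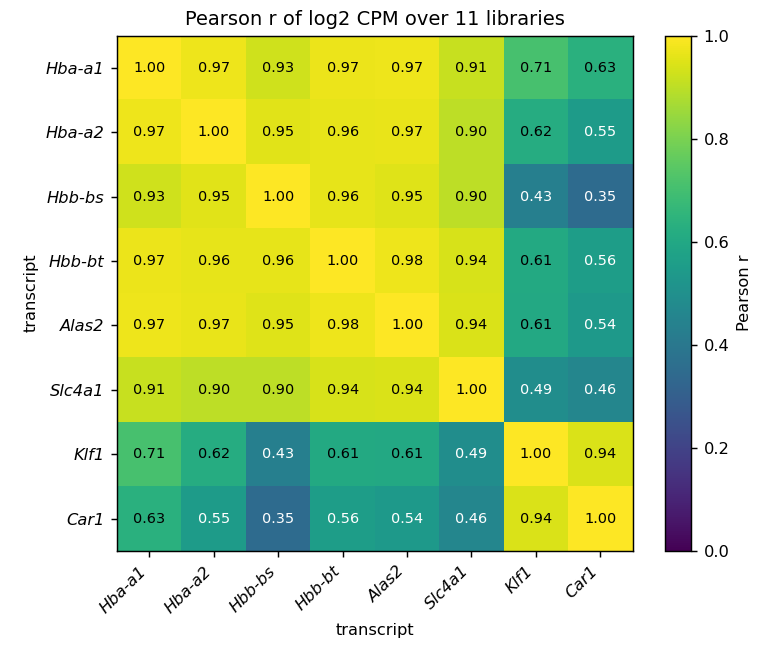
Pearson r of log2 CPM over the 11 libraries for each pair of transcripts, with colour and number giving r. The 4 globins, Alas2 and Slc4a1 form a block at 0.90 or above, Klf1 and Car1 form another at 0.94, and the cells between the blocks are at 0.71 or below.

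Other genes of the red cell programme were taken from 5 lists (minor globins, regulators, membrane and skeleton, haem and iron, maturation), of which 59 of 69 genes were tested. In DOX4X against PBS, 51 were higher and 8 lower, none passed the adjusted threshold, and 13 were higher at an unadjusted p under 0.05, which is 22% of them against 6% of all genes. Their median log2 fold change was 0.50, below the 1.17 of the 8 transcripts. In DOX1X against PBS, 52 were higher and 7 lower, 3 were higher at an unadjusted p under 0.05, which is 5.08% against 3.42% of all genes and near that background, and the median was 0.35. In DOX4X against DOX1X, 41 were higher and 18 lower with a median of 0.12. These comparisons rest on the same libraries, and the genes of a library move together.

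By role, the membrane and skeleton list had the highest median of the lists with several genes in DOX4X against PBS, 0.83, with 16 of 17 higher. Epb42 (protein 4.2) was at 1.00, Rhag (the Rh-associated glycoprotein) at 0.96 and Ank1 (ankyrin, which ties band 3 to the skeleton) at 0.74, and their groups overlapped. The regulators had a median of 0.58 with 12 of 13 higher. Tal1 was at 0.95, Epor (the erythropoietin receptor) at 0.60, Gata1 at 0.58 and Gfi1b at 0.49.

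The haem and iron list was split, with 12 of 15 higher and a median of 0.28. Tfrc, the transferrin receptor, was at 1.08 (80.0 ± 38.3 CPM in DOX4X and 37.8 ± 16.3 CPM in PBS libraries, SD, n = 4 each). Slc25a37, the mitochondrial iron carrier mitoferrin 1, was at 0.48. Fech, the last enzyme of the pathway, which cells of all kinds use, averaged 130 ± 9.7 CPM in DOX4X and 130 ± 15.1 CPM in PBS libraries (SD, n = 4 each), with a 95% interval of -0.27 to 0.26 for the log2 fold change. The maturation list had 10 of 13 higher and a median of 0.29. Within it Hemgn (hemogen) was at 0.97, Trim58 (a ubiquitin ligase of late erythroid cells) at 0.68 and Bpgm (bisphosphoglycerate mutase) at 0.08. None of these 13 named genes passed (edgeR adjusted p from 0.258 to 0.996).

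The named genes sided with Klf1 more often than with Alas2. Of 13, 12 had a higher Pearson r with Klf1 than with Alas2 over the 11 libraries, and Slc25a37 was the exception (0.17 with Klf1 and 0.66 with Alas2). The 12 include Trim58, described above as of late erythroid cells (0.90 with Klf1 and 0.58 with Alas2). They also include Bpgm, which was low with both (0.27 and 0.17) and had rho in the opposite order (0.11 and 0.21). Rhag had r = 0.99 with Klf1 (rho = 0.97, permutation adjusted p = 0.00017) and r = 0.65 with Alas2 (rho = 0.66, permutation adjusted p = 0.055). Gata1, the main erythroid GATA factor, had r = 0.96 with Klf1 (rho = 0.95, permutation adjusted p = 0.00017) and r = 0.55 with Alas2 (rho = 0.43, permutation adjusted p = 0.098). With Klf1, 11 of 13 passed an adjusted p under 0.05 over the 26 relations computed, and 4 did with Alas2, while the difference between the r values was not tested. These permutations also ignored group and flow cell. In flow cell 1 alone 12 of 13 again had the higher r with Klf1, and 12 did without PBS 2. The number was also 12 without the 2 libraries farthest from the median of Klf1 (PBS 4 and PBS 3) or of Alas2 (PBS 2 and PBS 4). In that last case the r values with Klf1 and with Alas2 rest on different libraries, so they are not a like comparison.

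The genes most like the mean of the 8 transcripts over the 11 libraries were mostly from outside the erythroid lists. Among 11046 genes with a mean of at least 5 CPM, Lmnb1 (lamin B1, r = 0.96), Arhgap30 (0.95), Irf5 (0.95), Ezh2 (0.95), Glipr1 (0.94), Itgb7 (0.93) and Sash3 (0.93) were among the 8 with the highest Pearson r, where r is a description across the same libraries. None of these 7 is in the erythroid lists. Of the named erythroid genes at that mean level, Epb42 ranked 64, Tfrc 107, Hemgn 193, Rhag 317 and Epor 367. Other genes of the erythroid lists ranked both higher and lower, such as E2f2 at 22, Kel at 60 and Bnip3l at 9664. Further down, Gata1 ranked 667, Gfi1b 773, Slc25a37 1277, Fech 1495 and Bpgm 3386.

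Several lists of markers for other marrow cells were also higher after doxorubicin, and others were not. In DOX4X against PBS, 16 of 16 cell division genes, 15 of 16 neutrophil markers, 13 of 14 B lineage markers, 12 of 12 T and NK cell markers, 12 of 12 endothelial markers and 11 of 15 monocyte and macrophage markers were higher on average, while 4 of 11 megakaryocyte markers were. In DOX1X against PBS, 16 of 16 cell division genes, 16 of 16 neutrophil markers, 13 of 14 B lineage markers, 12 of 12 T and NK cell markers, 10 of 15 monocyte and macrophage markers and 11 of 11 megakaryocyte markers were higher, but 0 of 12 endothelial markers (median log2 fold change -0.58). None passed the adjusted threshold in either comparison. Over all 17838 genes, 9309 were higher in DOX4X and 9138 in DOX1X than in PBS. The counts of markers include Vcam1 (higher in both comparisons) and Ebf1 (lower in both). The monocyte and macrophage and the B lineage sums below leave these genes out. The summed level of 16 cell division genes was 265 to 706 CPM in DOX4X, 218 to 538 CPM in DOX1X and 149 to 433 CPM in PBS libraries. That of 16 neutrophil markers was 276 to 1097, 254 to 945 and 193 to 668 CPM in the same order of groups.

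The other lists gave lower or less even sums. For 13 B lineage markers the sum was 177 to 597 CPM in DOX4X, 294 to 810 CPM in DOX1X and 105 to 541 CPM in PBS libraries. T and NK cell markers were lowest, at 13.4 to 31.2 CPM in DOX4X, 11.7 to 26.8 CPM in DOX1X and 7.08 to 17.2 CPM in PBS libraries, with Trbc1, Cd8a and Gzma at 0 in at least 1 library. The 14 monocyte and macrophage markers summed to 114 to 194 CPM in DOX4X, 91.3 to 189 CPM in DOX1X and 73.4 to 111 CPM in PBS libraries. Each DOX4X library was above each PBS library, narrowly so at 114 against 111 CPM. Mrc1 (mean 59.3 CPM in DOX4X and 28.5 CPM in PBS libraries) and Lyz2 (55.8 and 32.5 CPM) were the largest parts of that sum. C1qa, C1qb, C1qc and Cd163, 4 of the 15 listed, were lower in DOX4X on average.

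Endothelial markers were at 583 to 1073 CPM in DOX4X, 231 to 412 CPM in DOX1X and 168 to 687 CPM in PBS libraries. The sums of the schedules did not overlap, but none of the 12 genes passed in DOX4X against DOX1X (lowest edgeR adjusted p = 0.886). DOX1X 3, at 412 CPM, is the only DOX1X library on flow cell 2 with the DOX4X libraries. The part of the flow cell in this difference was not tested. Megakaryocyte markers were at 129 to 687 CPM in DOX4X, 387 to 2116 CPM in DOX1X and 147 to 999 CPM in PBS libraries. Of the neutrophil list, Ly6g was at 0 in at least 1 library. The stromal list summed to 64702 to 76723 CPM in DOX4X, 64742 to 81314 CPM in DOX1X and 70690 to 80954 CPM in PBS libraries. The part of these cells in the erythroid values was not tested.

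**Figure D5:**
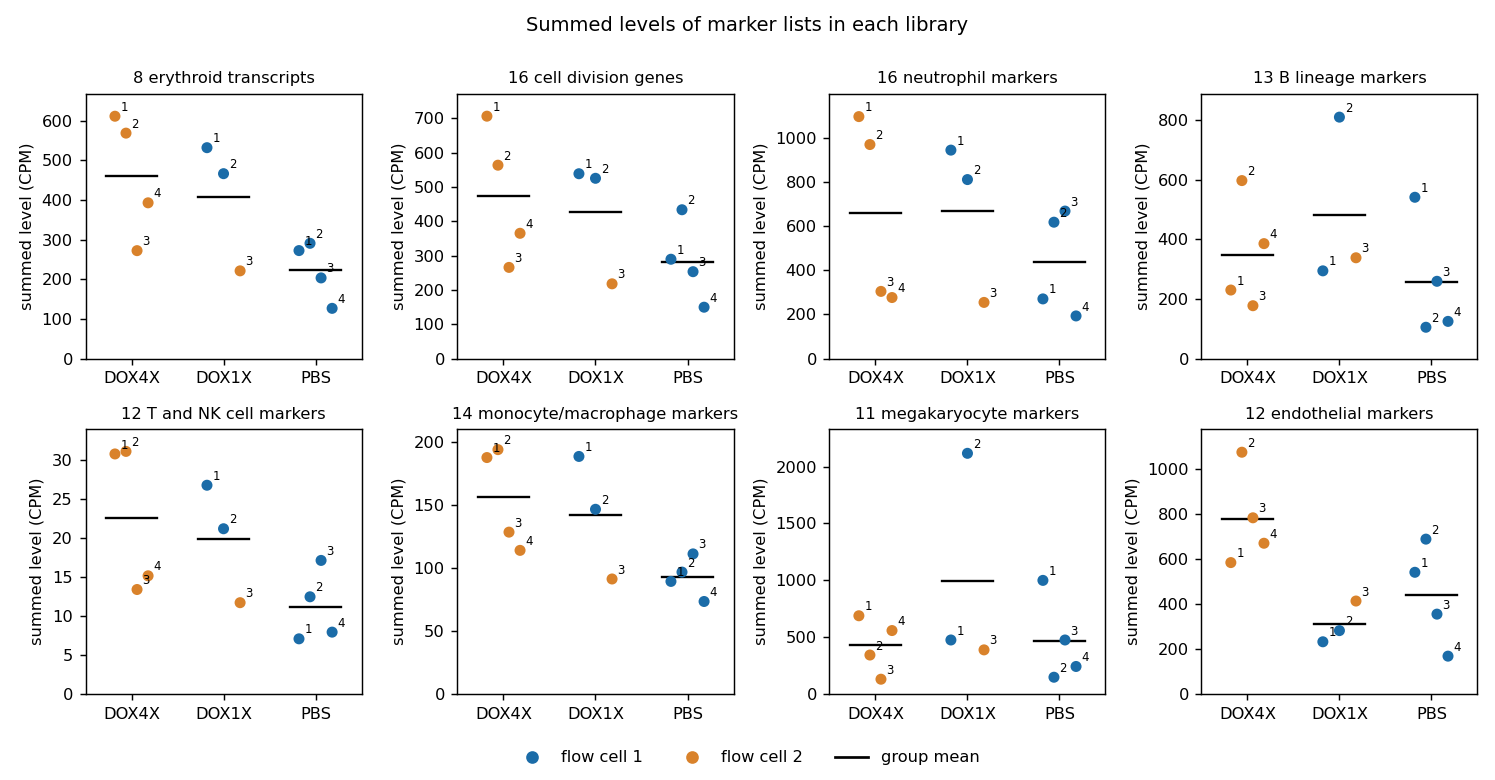
Summed level in CPM (y axis, from 0, linear) of the 8 erythroid transcripts and of 7 marker lists in each library, with the replicate number beside each point, colour for the flow cell and a line for the group mean. The doxorubicin groups have higher means than PBS for the erythroid, cell division, neutrophil, B lineage, T and NK cell and monocyte and macrophage panels, and the groups overlap in most panels.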

How the data were processed

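Poly(A) RNA of 11 tdTomato-sorted libraries was made into cDNA by SMART-Seq v4 Plus (per the labels' protocols), a kit without strand information. The deposited values are raw counts per gene, with no normalization. Per the submitters' processing notes the authors ran STAR 2.7.9a, featureCounts 2.0.1 and SAMtools 1.17, besides Trim Galore 0.6.6 and the quality tools MultiQC 1.7 and FastQC 0.11.5, and name GRCm39 as the genome build. Which annotation and strand setting were used, and how reads with several matches were counted, is not given in the sources used here.

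All 24718 genes entered edgeR 4.0.16 (R 4.3.3). The filterByExpr function kept 17838, which hold at least 99.9% of each library's counts. TMM factors, group means over all 11 libraries, a two-sided quasi-likelihood test and Benjamini-Hochberg adjustment over all genes were used, with a threshold of 0.05. The test was tried on simulated counts first. Levels are CPM scaled by TMM, and correlations use log2 CPM with a prior count of 2. Levels per kilobase use the longest GENCODE M21 protein-coding transcript.

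Named genes are the 9 chosen by symbol, 18 further erythroid genes and 4 stromal markers whatever their values, and the 8 non-members most like the set. Of the 18, Hbb-y and Hba-x were not analysed here, and 3 others are not reported here. The members and lists were chosen with earlier results of these data known. Vcam1 and Ebf1, which the stroma also expresses strongly, were left out of the summed levels of the monocyte and macrophage and the B lineage lists after their values were seen. Likeness to Klf1 and Alas2, and the counts and member correlations with libraries left out, were also added after seeing the data. Alternatives were RLE and upper quartile scaling, TMM factors without erythroid genes, other filters (none; 5 CPM in 3 libraries), a robust prior, DESeq2 1.42.0, limma 3.58.1 (voom), only the compared groups, the flow cell, a replicate block, summed globin copies, a threshold of 0.10 and each library left out.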

Additional observations from a re-analysis of the deposited data

Results flagged for a closer look

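Alas2 in PBS 3 stood far from its group, at 3.88 CPM against 1.33 to 1.60 CPM in the other PBS libraries. Its gap to the nearest of them was 0.897 of the group's range, past Dixon's 95% critical value for 4 libraries. It is 1 of 20 groups of values checked, and chance flags about 1 in 20. Without PBS 3 the Alas2 log2 fold change of DOX4X against PBS was 1.98 (edgeR adjusted p = 0.26).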

How the results depend on the processing

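In the edgeR fits, with limma-voom and with any library left out, 0 of 8 transcripts passed in any comparison, and with DESeq2 3 did for DOX4X against PBS (556 genes called) and 0 for the others. The median log2 fold change of DOX4X against PBS was 0.95 to 1.36 with a library left out and 2.72 with the flow cell as a term. That of DOX1X against PBS was 0.74 to 1.58 with a library left out. That of DOX4X against DOX1X was -0.25 to 0.51 with a library left out, 1.35 with the flow cell as a term and 1.35 within flow cell 2. For DOX4X against PBS, Slc4a1 was at 1.52 without DOX4X 1 and 3.04 without PBS 3, and Klf1 at 0.69 without PBS 4 and 1.52 without PBS 2.

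Both comparisons with PBS kept their direction for all 8 genes in each alternative run. DOX4X against DOX1X did not, and the cause was not tested. Hbb-bs was at 0.92 with the flow cell as a term and 0.92 within flow cell 2, and Hba-a1 was at -0.0063 with no filter. With globin copies summed the beta pair was at -0.080, where Hbb-bs and Hbb-bt have no values of their own. In the main fit Hbb-bs was at -0.16 and Hbb-bt at 0.12. With limma-voom Hba-a1 was at -0.15, Hba-a2 at -0.049, Hbb-bt at -0.074, Alas2 at -0.064 and Slc4a1 at -0.0082. With a library left out the ranges were -0.40 to 0.49 for Hba-a1, -0.26 to 0.52 for Hba-a2, -0.50 to 0.39 for Hbb-bs, -0.22 to 0.52 for Hbb-bt, -0.28 to 0.69 for Alas2, -0.10 to 0.74 for Klf1 and -0.32 to 0.66 for Slc4a1.

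Replicate numbers did not pair the samples: deviations of same-numbered libraries correlated at -0.12 to 0.08 for DOX4X with PBS, -0.03 to 0.10 for DOX1X with PBS and 0.08 to 0.35 for DOX4X with DOX1X. A library correlated best with its own number in 1 of 4, 0 of 3 and 2 of 3 cases. With the replicate block 0 of 8 passed in each comparison, the medians were 1.11, 0.96 and 0.25 for DOX4X against PBS, DOX1X against PBS and DOX4X against DOX1X, and the genes called were 10, 6 and 2, against 26, 1 and 1 without the block. Depth limits Alas2 and Slc4a1 most, with as few as 40 and 47 counts in PBS 2.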
